A study of Homo sapiens with 9 samples.

Results

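The genes described are the human fatty acid desaturases SCD, SCD5, FADS1, FADS2 and FADS3, taken as the rows of the count table whose Ensembl identifiers map to these symbols. All 5 were present among the 23727 genes of the table, and all 5 passed the filter on low counts that left 15273 genes for testing. Their RNA was measured by RNA sequencing in 9 libraries of LN229, an established human glioblastoma cell line (1 source label spells it LN299). Untreated cells were taken at 0 h, and cells given 500 µM sodium formate were taken after 8 h or 24 h, with 3 libraries in each of the 3 groups. Every group shared the same line, for which the labels name no genetic change, and the same medium, whose labels list 10% fetal bovine serum, glutamine at 2 mM and glucose at 17 mM. No untreated library at 8 h or 24 h was analysed here, so formate and time in culture cannot be told apart. Both formate groups are also compared with the same 3 untreated libraries.

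Fatty acid desaturases are membrane enzymes of the endoplasmic reticulum that place a double bond in a fatty acyl chain, using oxygen and electrons passed from NADH through cytochrome b5. SCD and SCD5 make the monounsaturated palmitoleate and oleate from saturated chains, while FADS2 and FADS1 act in sequence, around an elongation step, on the dietary polyunsaturated fatty acids linoleate and alpha-linolenate. SCD, FADS1 and FADS2 are textbook targets of the sterol regulatory element binding proteins (SREBPs), membrane-bound transcription factors that are released when the membrane is short of sterol.

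SCD, FADS2, FADS1 and SCD5 were higher after 24 h of formate than in untreated cells, and FADS3 did not pass the test. The fold changes were 3.24 for SCD, 2.90 for FADS2, 1.54 for SCD5 and 1.45 for FADS1. After 8 h of formate none of the 5 passed the test. FADS2 had the smallest p-value of all 15273 genes at 24 h against 0 h. SCD ranked 25, FADS1 51 and SCD5 504 by p-value in the same comparison.

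Total counts were 22222298 to 25848242 per library, and a count of 3 was worth 0.116 to 0.135 CPM, the read count relative to the library's total, before scaling. All other CPM values are scaled by the trimmed mean of M values (TMM). On the first principal component, which held 70.7% of the variance of the 500 most variable genes, replicate 1 at 0 h and replicate 1 at 8 h stood apart from the other libraries of their groups. Their scores were -23.5 and -21.56, against -3.41 to -0.80 for the other 4 libraries of those groups and 9.56 to 25.03 for the 24 h libraries. Of the markers of the labelled line, VIM, CD44, NES, S100B, SOX2, OLIG2 and EGFR were detected in all 9 libraries, while the astrocyte marker GFAP had 3 to 10 counts. Markers of other cell types were at or near 0, with 0 to 3 counts for the endothelial PECAM1, 0 to 1 for the epithelial EPCAM and 1 to 3 for the leukocyte PTPRC. The oligodendrocyte marker MOG had 6 to 19 counts, and RBFOX3, ADIPOQ and ALB had no row in the count table under these symbols. The glial marker S100B had a mean of 130.3 CPM at 0 h and 339.7 at 24 h, and whether this has a part in the results below was not tested. The labels do not say whether the 3 libraries of a group came from separate cultures, so p-values measure only the spread between these libraries.

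SCD (ENSG00000099194) lies on the plus strand of chr10:100347124-100364834 and SCD5 (ENSG00000145284) on the minus strand of chr4:82629539-82798857 (GRCh38, GENCODE 29). The other 3 genes sit side by side on chromosome 11, FADS2 (ENSG00000134824) at chr11:61792980-61867354 on the plus strand, FADS1 (ENSG00000149485) at chr11:61799625-61829318 on the minus strand within the span of FADS2, and FADS3 (ENSG00000221968) at chr11:61873519-61892051 on the minus strand. DNA upstream of their starts is shown because 4 of the 5 genes were called together, and motifs that textbooks link to SREBP targets can be looked for there. The RefSeq promoter windows (GRCh38.p14) reach from 250 bases before to 50 bases after a start. Each stretch below is the longest run outside annotated exons before a start, written 5′ to 3′ on the gene's own strand. The nearest base shown lies 110 bases before the start for SCD, 62 for SCD5, 195 for FADS1, 149 for FADS2 and 1 for FADS3. For FADS2, 1 of its 2 windows is shown. Matches elsewhere in the windows are counted below but not shown. Capitals mark matches of CCAAT and of GGGCGG, in either orientation.
SCD, chr10:100346983-100347123, plus strand: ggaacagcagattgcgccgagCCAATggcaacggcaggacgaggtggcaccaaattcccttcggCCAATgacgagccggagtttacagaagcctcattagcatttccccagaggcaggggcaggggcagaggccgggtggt
SCD5, chr4:82798858-82799046, minus strand: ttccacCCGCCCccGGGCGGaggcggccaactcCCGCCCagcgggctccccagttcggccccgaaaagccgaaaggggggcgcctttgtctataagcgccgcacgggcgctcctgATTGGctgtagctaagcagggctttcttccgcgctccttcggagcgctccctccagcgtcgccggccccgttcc
FADS1, chr11:61817198-61817253, minus strand: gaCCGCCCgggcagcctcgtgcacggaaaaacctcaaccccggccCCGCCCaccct
FADS2, chr11:61816154-61816255, plus strand: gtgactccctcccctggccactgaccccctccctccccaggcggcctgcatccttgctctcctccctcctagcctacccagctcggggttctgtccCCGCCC
FADS3, chr11:61891546-61891795, minus strand: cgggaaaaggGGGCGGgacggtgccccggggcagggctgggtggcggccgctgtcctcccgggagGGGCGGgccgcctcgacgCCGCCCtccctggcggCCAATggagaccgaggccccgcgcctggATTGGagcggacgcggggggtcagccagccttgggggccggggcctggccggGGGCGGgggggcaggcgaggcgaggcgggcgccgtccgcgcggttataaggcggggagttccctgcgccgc

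Across the whole windows, CCAAT, the site of nuclear factor Y, occurred 2 times in SCD, 229 and 186 bases before the start, both on the gene's strand. It occurred 1 time in SCD5 and 1 time in the 2 windows of FADS2, where it lay 6 bases after the start. FADS3, which was not called, held 2 matches, and FADS1, which was called, held 0. GGGCGG, the site of SP1, occurred in all 5 genes, with 2 matches in SCD, 4 in SCD5, 2 in FADS1, 1 in FADS2 and 5 in FADS3. TCACNCCAC, a core of the sterol regulatory element, and the E-box CACGTG were matched in none of the 6 windows. Only these exact letters were searched. Other forms of the element, and sites outside the windows, were not looked for, so the absence of a match does not show that a sterol element is absent. Both strands were searched, and among all 35116 RefSeq windows 34.6% held CCAAT, 45.0% GGGCGG, 1.13% TCACNCCAC and 7.26% CACGTG. No matches in the 6 windows overlapped each other, and a match is a description of the letters only.

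SCD codes for the main human delta-9 desaturase, stearoyl-CoA desaturase. Its level was 139.6, 258 and 279 CPM in untreated replicates 1, 2 and 3. At 8 h it was 153, 258 and 252 CPM, and at 24 h it was 656, 769 and 766 CPM. The lowest 24 h library lay above the highest library of both other groups, and replicate 1 was the lowest of the 3 in every group. Mean levels were 225 ± 75.1 CPM at 0 h, 221 ± 58.9 at 8 h and 731 ± 64.3 at 24 h (SD, n = 3). The log2 fold change of 24 h against 0 h was 1.70 with a standard error of 0.25 (edgeR quasi-likelihood test, Benjamini-Hochberg adjusted p = 0.0167). The same-numbered differences were 2.23, 1.58 and 1.46 on the log2 scale for replicates 1, 2 and 3, so the pair with the lowest untreated library had the largest difference. Without untreated replicate 1 the log2 fold change was 1.43 (edgeR, adjusted p = 0.0133), and without replicate 1 at both 0 h and 8 h it was 1.44 (edgeR, adjusted p = 0.000498).

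SCD5 codes for the second human delta-9 desaturase and was the scarcest of the 5 transcripts, with 115 to 219 counts per library. Its level was 5.42, 5.12 and 5.84 CPM at 0 h, and 5.63, 5.34 and 6.08 CPM at 8 h. At 24 h it was 7.27, 8.80 and 9.08 CPM. All 3 libraries at 24 h lay above all 6 others, with a mean of 8.38 ± 0.971 CPM against 5.46 ± 0.361 at 0 h and 5.68 ± 0.377 at 8 h (SD, n = 3). The log2 fold change of 24 h against 0 h was 0.62 with a standard error of 0.15 (edgeR, adjusted p = 0.0396). This call was close to the threshold. It was lost in 9 of 25 alternative fits, among them those without untreated replicate 1 (edgeR, adjusted p = 0.0781) and with only the 6 libraries compared (edgeR, adjusted p = 0.0797).

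FADS2, the delta-6 desaturase, takes the first step from linoleate and alpha-linolenate toward the long polyunsaturated fatty acids. Its level was 73.1, 98.3 and 97.2 CPM at 0 h, and 74.6, 100.4 and 94.7 CPM at 8 h. At 24 h it was 218, 279 and 283 CPM. The 24 h libraries did not overlap either other group, and replicate 1 was again the lowest of the 3 in every group. Mean levels were 89.5 ± 14.2 CPM at 0 h, 89.9 ± 13.6 at 8 h and 260.0 ± 36.3 at 24 h (SD, n = 3). The log2 fold change was 1.54 with a standard error of 0.16 (edgeR, adjusted p = 0.0108). The differences between same-numbered libraries were 1.58, 1.51 and 1.54 on the log2 scale. These 3 differences lay much closer together than those of SCD.

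FADS1, the delta-5 desaturase, acts after FADS2 and an elongation step and makes arachidonate and eicosapentaenoate. Its level was 148, 159.7 and 168 CPM at 0 h, and 162, 159 and 156 CPM at 8 h. At 24 h it was 229, 228 and 232 CPM, the tightest group, relative to its mean, of any of the 4 called genes. Every 24 h library lay above every other library, while the 0 h and 8 h libraries overlapped. Means were 159 ± 9.79 CPM at 0 h, 159 ± 2.78 at 8 h and 229.9 ± 2.14 at 24 h (SD, n = 3), and the log2 fold change of 24 h against 0 h was 0.54 with a standard error of 0.09 (edgeR, adjusted p = 0.0199). With only the 6 libraries compared, the adjusted p of FADS1 was 0.0506 (edgeR).

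FADS3 resembles FADS1 and FADS2 in sequence and is known to place a double bond in the long-chain base of ceramides. It stayed within a narrow range, with 21.7, 20.9 and 21.4 CPM at 0 h, 21.1, 19.2 and 21.1 CPM at 8 h, and 20.9, 22.8 and 21.5 CPM at 24 h. The 3 groups overlapped. The log2 fold change of 24 h against 0 h was 0.03 with a standard error of 0.10 (edgeR, adjusted p = 0.866), and its sign turned without replicate 2 at 24 h (-0.01).

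**Figure D1:**
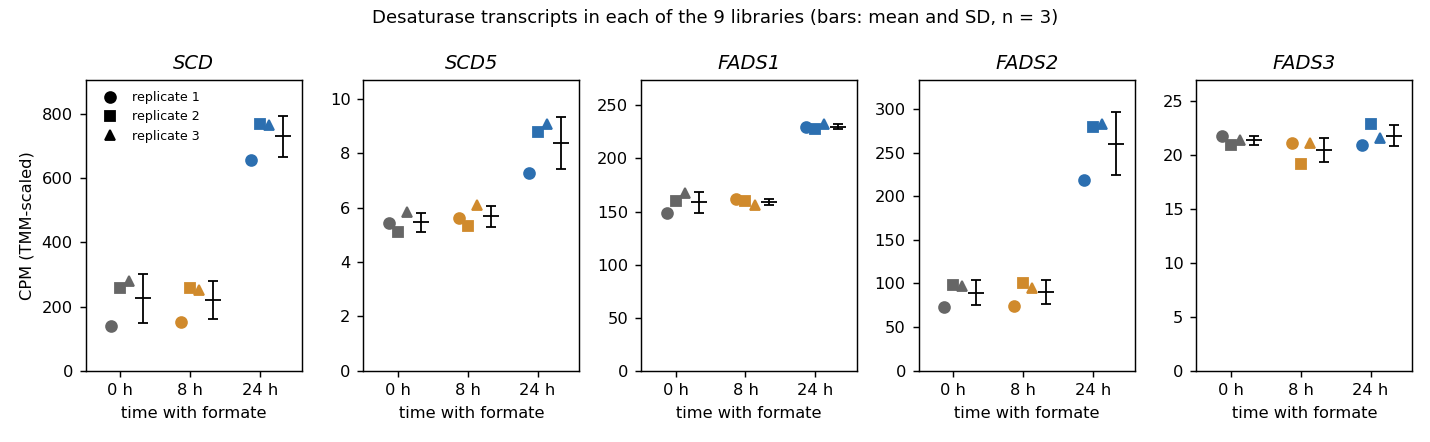
Level of each desaturase in each of the 9 libraries, in TMM-scaled CPM on a linear axis from 0 for each gene, by hours of formate, with point shapes for the replicate numbers and bars for the mean and SD of 3 libraries. SCD, SCD5, FADS1 and FADS2 have all 3 libraries at 24 h above the other 6, and FADS3 overlaps between groups.

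In all, 4 of 5 desaturases were called higher and 0 lower at 24 h against 0 h, where 4.25% of all tested genes were called, 2.47% higher and 1.77% lower. The 5 genes were chosen with earlier results of these data known, so these shares are a description. The median log2 fold change of all tested genes was 0.007. The 24 h and 0 h libraries did not overlap for 4 of 5 desaturases and for 30.3% of all tested genes. With the replicate number as a block in the fit, 4 of 5 were again called, with 24.1% of all tested genes, and the adjusted p of edgeR was 4.50e-05 for SCD, 0.00617 for SCD5, 0.000891 for FADS1 and 4.36e-06 for FADS2. Without replicate 2 or without replicate 3 at 24 h, in the fit without the block, 0 of 5 desaturases and 0 of all genes passed, although 4 of 5 kept an unadjusted p under 0.05 in edgeR's test, as did 2550 to 2563 of all genes. With the block, SCD, FADS1 and FADS2 stayed called whichever library was left out, with a largest adjusted p of 0.00804 (edgeR).

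At 8 h against 0 h, 0 of 5 desaturases and 0% of all tested genes were called by edgeR, and 0 desaturases and 79 genes had an unadjusted p under 0.05. DESeq2 called 0 genes as well, with 66 at an unadjusted p under 0.05. The log2 fold changes were -0.03 for SCD, 0.06 for SCD5, 0.01 for FADS1, 0.01 for FADS2 and -0.06 for FADS3, with standard errors of 0.25, 0.15, 0.09, 0.16 and 0.10 (edgeR, adjusted p = 0.999855 for each). The 0 h and 8 h libraries overlapped for each of the 5, while 3.31% of all tested genes had groups that did not overlap. SCD5 was higher at 8 h in each same-numbered pair, by 0.05, 0.06 and 0.06 on the log2 scale, far less than the 0.42, 0.78 and 0.64 of the 24 h pairs. FADS3 had a negative difference in each of its 8 h pairs (-0.039, -0.126 and -0.019). How many of all genes kept 1 sign across the pairs was not counted, so these signs are a description.

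The test of 24 h against 8 h, which also tests whether the 24 h and 8 h changes differ, called 3 of 5 desaturases, all higher, where 4.56% of all tested genes were called and 2.84% were higher. The log2 fold changes were 1.72 for SCD (edgeR, adjusted p = 0.0171), 1.53 for FADS2 (edgeR, adjusted p = 0.00869) and 0.53 for FADS1 (edgeR, adjusted p = 0.0183). SCD5 had a log2 fold change of 0.56 (edgeR, adjusted p = 0.0516, and 0.0106 with the replicate block). FADS3 had a log2 fold change of 0.09 (edgeR, adjusted p = 0.612). The groups did not overlap for 4 of 5 desaturases and for 34.3% of all tested genes. Without replicate 1 at 8 h, which stood apart on the first principal component, 0 of 5 and 0 of all 15605 genes tested were called in the fit without the block, where 4 of 5 and 2078 of all genes had an unadjusted p under 0.05. The counts called were also 0 of 5 and 0 of all genes without replicate 2 or replicate 3 at 24 h, with 4 of 5 and 2446 or 2177 of all genes at an unadjusted p under 0.05 (edgeR).

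**Figure D2:**
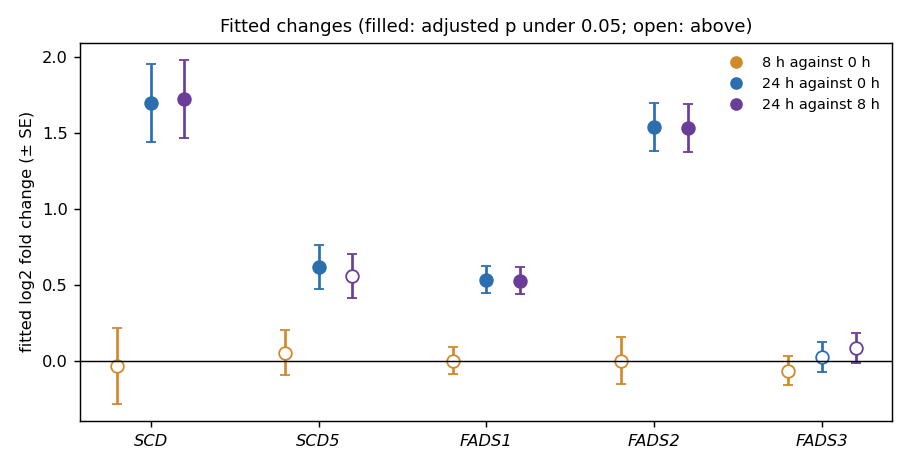
Log2 fold change of each desaturase in the 3 comparisons, with bars of 1 standard error from the edgeR fit and filled points where the adjusted p was under 0.05. The 8 h against 0 h points lie at 0 within their errors, and the points of SCD and FADS2 at 24 h lie near 1.5 or above.

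Ratios of counts were compared within 2 pairs, FADS2 with FADS1 and SCD with SCD5, and no comparison passed its test. The ratio of FADS2 to FADS1 counts was 0.493, 0.616 and 0.579 in untreated replicates 1, 2 and 3. It was 0.461, 0.630 and 0.606 at 8 h, and 0.952, 1.22 and 1.22 at 24 h. The untreated and 8 h values overlapped, and each 24 h value lay above both groups. The mean log2 ratio was 0.17 ± 0.21 at 24 h and -0.84 ± 0.17 at 0 h (SD, n = 3), a difference of 1.0 with an exact two-sided permutation p of 0.1, the smallest that 3 against 3 libraries can give. At 24 h against 8 h the exact permutation p was again 0.1, and at 8 h against 0 h it was 1.

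The ratio of SCD to SCD5 counts was 25.6, 50.2 and 47.6 at 0 h. It was 27.1, 48.2 and 41.3 at 8 h, and 89.97, 87.2 and 84.2 at 24 h. The 24 h libraries were again above all others, and they lay closer together than the libraries of either other group. The mean log2 ratio was 6.44 ± 0.05 at 24 h against 5.30 ± 0.54 at 0 h (SD, n = 3), a difference of 1.14 with an exact two-sided permutation p of 0.1. The exact permutation p was 0.1 at 24 h against 8 h and 0.9 at 8 h against 0 h. Over the 6 comparisons of ratios, the Benjamini-Hochberg adjusted exact permutation p was 0.15 for the 4 that involve 24 h, so none passed, and none could have at this number of libraries.

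**Figure D3:**
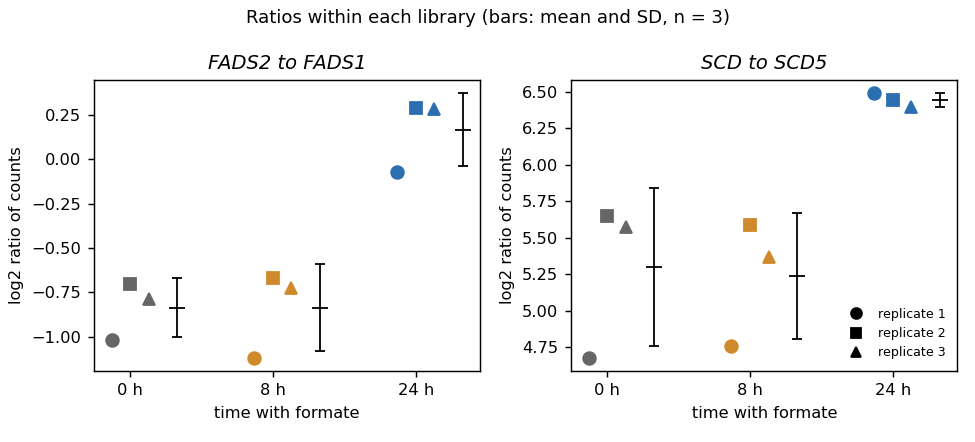
Log2 ratio of FADS2 to FADS1 counts and of SCD to SCD5 counts in each of the 9 libraries, by hours of formate, with point shapes for the replicate numbers and bars for the mean and SD of 3 libraries. In both panels the 3 libraries at 24 h lie above the 6 others.

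Levels per length, as CPM per kilobase of merged exons, put the 5 genes in the order SCD, FADS1, FADS2, FADS3 and SCD5 in untreated cells. The values were 42.1 ± 14 for SCD, 15.5 ± 0.957 for FADS1, 8.12 ± 1.29 for FADS2, 3.39 ± 0.0624 for FADS3 and 1.27 ± 0.0842 for SCD5 (SD, n = 3). None of these neighbours overlapped at 0 h on this scale. At 24 h FADS2 reached 23.6 ± 3.29 and FADS1 22.5 ± 0.209 CPM per kilobase (SD, n = 3), and the libraries of these genes overlapped. Over the length of the principal transcript, SCD and FADS1 overlapped at 0 h, at 26.0 to 52.0 and 32.8 to 37.1 CPM per kilobase, and FADS2 lay above FADS1 at 24 h, at 60.1 to 77.8 against 50.4 to 51.3. At 24 h the mean of FADS2 was above that of FADS1 with both lengths. Whether their libraries overlapped depended on which exons were counted as their length.

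Summed over the 5 genes, the level per length was 70.3 ± 16.2 CPM per kilobase at 0 h, 69.5 ± 11.9 at 8 h and 187.7 ± 15.7 at 24 h (SD, n = 3). SCD made up 58.7% of this sum at 0 h and 72.6% at 24 h. FADS1 went from 22.7% to 12% and FADS3 from 5.04% to 1.85%, although neither had a lower level at 24 h. FADS2 made up 11.7% and 12.5%. Over principal transcript lengths the shares at 0 h and 24 h were 35.7% and 49.8% for SCD, 30.8% and 18.7% for FADS1, 21.4% and 26.1% for FADS2, and 10.6% and 4.48% for FADS3, so their size depends on which exons are counted. The order of the mean shares at 0 h was the same with both lengths, and at 24 h SCD was first and FADS2 second with both. Over merged exons, however, FADS1 exceeded FADS2 in replicate 1 at 24 h (13.2% against 11.7%). These shares describe RNA from bulk cultures, in which fewer cells with a transcript and less transcript per cell cannot be told apart.

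The genes around the desaturases in lipid metabolism were followed through 8 lists with 88 entries, of which 82 were tested. At 24 h against 0 h, 9 of the 82 were called higher and 2 lower, with a median log2 fold change of 0.09 against 0.007 for all tested genes. These 11 genes were 13.4% of those tested in the lists, beside 4.25% of all tested genes. With the replicate block the counts were 21 higher and 7 lower, or 34.1% of the lists beside 24.1% of all tested genes. The lists were chosen with earlier results of these data known, so these shares are a description and not a test. At 8 h against 0 h the count was 0 of 82 with edgeR. Without the 2 libraries that stood apart, 13 list genes and 896 of all 15540 genes tested were called at 24 h against 0 h. Without replicate 2 or replicate 3 at 24 h, 0 list genes and 0 of all genes were called.

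Of the 10 regulators of SREBP activity, 3 were called higher and 0 lower, beside 2.47% and 1.77% of all tested genes. SREBF2, which codes for the SREBP that acts mainly on sterol synthesis, had 129 ± 27.6 CPM at 0 h and 274 ± 13.0 at 24 h, and its log2 fold change was 1.08 (edgeR, adjusted p = 0.0167). SREBF1, the gene of the SREBPs that act mainly on fatty acid synthesis, had 73.5 ± 18.8 CPM at 0 h and 146.7 ± 7.24 at 24 h, and its log2 fold change was 1.0 (edgeR, adjusted p = 0.0311). INSIG1, which holds SREBP in the endoplasmic reticulum when sterol is plentiful, had 34.5 ± 13.1 CPM at 0 h and 113 ± 6.92 at 24 h, and its log2 fold change was 1.71 (edgeR, adjusted p = 0.0202). The log2 change of INSIG1 was close to that of SCD. SCAP, the escort protein of SREBP, had 78.7 ± 1.84 CPM at 0 h and 76.9 ± 2.26 at 24 h and did not pass the test (edgeR, adjusted p = 0.817). The median log2 fold change of this list was 0.02. Of the exon bases of SREBF1 and SREBF2, 6.92% and 3.71% overlap the opposite-strand genes RAI1 and SREBF2-AS1.

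Among enzymes that supply saturated fatty acids, 3 of 9 were called higher and 0 lower, beside 2.47% and 1.77% of all tested genes. FASN, the fatty acid synthase that makes palmitate, rose from 571 ± 87.4 to 1042 ± 49.4 CPM (log2 fold change 0.87, edgeR adjusted p = 0.0167). ACACA, the acetyl-CoA carboxylase that makes malonyl-CoA, had a log2 fold change of 0.77 (edgeR, adjusted p = 0.0199). ACSS2, which makes acetyl-CoA from acetate, had one of 0.84 (edgeR, adjusted p = 0.0353). ACLY, which makes acetyl-CoA from citrate, had a log2 fold change of 0.36 and passed only with the block (edgeR, adjusted p = 0.0575, and 0.00915 with the block). All 3 called genes had smaller log2 fold changes than SCD and FADS2 and larger ones than FADS1 and SCD5, differences between genes that were not tested.

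Of 12 tested genes of fatty acid elongation, 1 was called, beside 4.25% of all tested genes. The list covers elongation of saturated chains as well as the step between FADS2 and FADS1. ELOVL2, which lengthens polyunsaturated chains, rose from 32.6 ± 6.5 to 52.4 ± 6.66 CPM, a log2 fold change of 0.68 (edgeR, adjusted p = 0.0349). ELOVL5, which lengthens the product of FADS2, had a log2 fold change of 0.21 (edgeR, adjusted p = 0.228), and ELOVL6, which lengthens palmitate to stearate, the substrate of SCD, had 0.29 (edgeR, adjusted p = 0.0806, and 0.0289 with the block). ELOVL1, which lengthens saturated and monounsaturated very long chains, had -0.50 (edgeR, adjusted p = 0.0929, and 0.00193 with the block), and ELOVL7 had 0.81 (edgeR, adjusted p = 0.0865, and 0.0233 with the block). Of the 8 electron donors of the desaturases, 0 were called, and the list's median log2 fold change was -0.08. Its smallest p belonged to CYB5R2, a cytochrome b5 reductase, with 299.97 ± 114 CPM at 0 h and 146 ± 49.4 at 24 h and a log2 fold change of -1.04 (edgeR, adjusted p = 0.0600, and 0.000205 with the block). The CYB5B and CYB5A genes of cytochrome b5 had log2 fold changes of 0.08 and -0.03 with adjusted p-values of 0.590 and 0.919 (edgeR).

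Of the 8 tested genes of acyl-CoA activation, SLC27A1, a fatty acid transport protein with acyl-CoA synthetase activity, was called higher (log2 fold change 0.57, edgeR adjusted p = 0.0441). Its relative SLC27A4 was called lower (log2 fold change -0.68, edgeR adjusted p = 0.0316). Among 18 acyltransferases, which join acyl chains to glycerolipids and sterols, 0 were called higher and 1 lower. Over all tested genes, 2.47% were called higher and 1.77% lower. The acyltransferase called lower was GPAT3, which acts on glycerol-3-phosphate, with a log2 fold change of -0.84 (edgeR, adjusted p = 0.0202). MSMO1, a sterol methyl oxidase of cholesterol synthesis, was the 1 called gene among 4 tested other lipid desaturases and related oxidases (log2 fold change 1.02, edgeR adjusted p = 0.0189), while DEGS1, the ceramide desaturase, had -0.06 (edgeR, adjusted p = 0.713). Among 13 nuclear receptors and factors linked to desaturase control, 0 were called. The smallest p in that list belonged to SP1, with a log2 fold change of 0.48 (edgeR, adjusted p = 0.0667, and 0.0140 with the block).

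**Figure D4:**
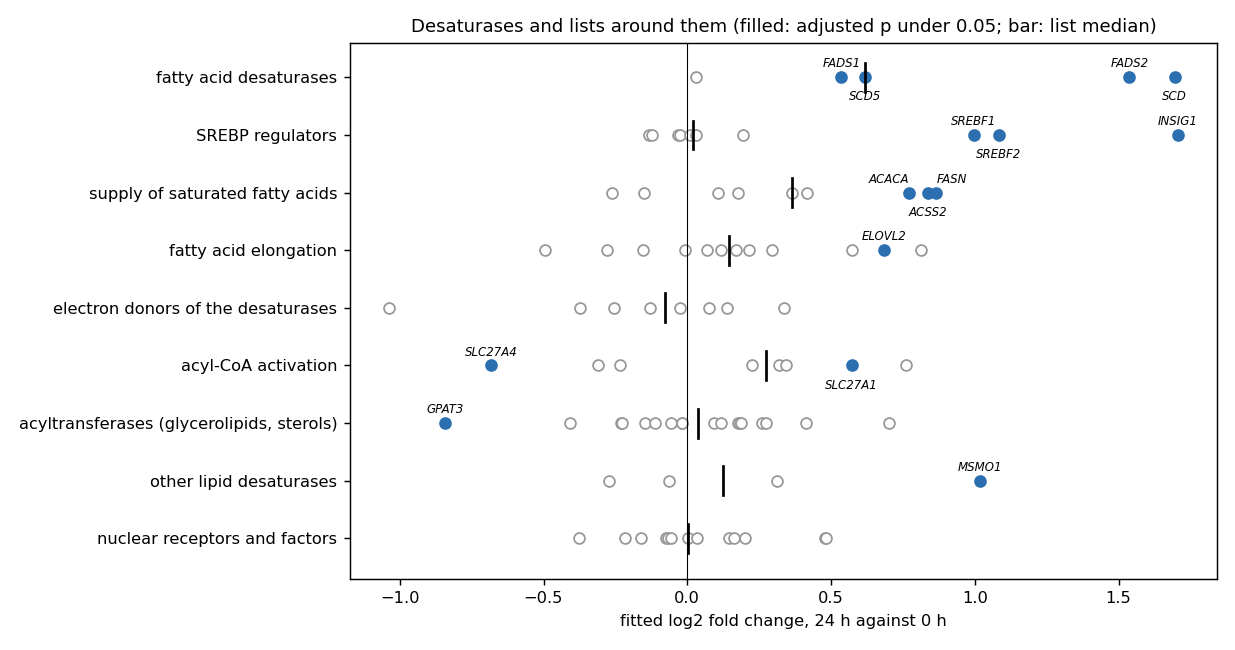
Log2 fold change at 24 h against 0 h of each tested gene in the 8 lipid lists and of the 5 desaturases, with filled points where the adjusted p was under 0.05 and a bar at each list's median. Labels mark the 9 list genes called higher, the 2 called lower and the 4 called desaturases. The medians of the 8 lists lie between -0.08 and 0.36, and the bar of the desaturases lies at 0.62, the value of SCD5.

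The 3 nearest tested genes on each side of the desaturases were read in the same fit. Around the FADS genes on chromosome 11, MYRF, a transcription factor of myelin formation on the plus strand at chr11:61752642-61788518, was called higher with a log2 fold change of 1.26 (edgeR, adjusted p = 0.0306). TMEM258, whose span overlaps that of MYRF on the opposite strand, and FEN1 had log2 fold changes of -0.07 and -0.04 with adjusted p-values of 0.753 and 0.902 (edgeR). FEN1 codes for a flap endonuclease of DNA replication. RAB3IL1, BEST1 and FTH1 on the other side of FADS3 were not called, although BEST1 passed with the block (edgeR, adjusted p = 0.151, and 0.0288 with the block). FADS3 itself, the last of the FADS genes on that side, was not called either.

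Beside SCD, the long intergenic RNA OLMALINC at chr10:100373513-100454043 was called higher, with a log2 fold change of 1.05 and a standard error of 0.26 (edgeR, adjusted p = 0.0442). OLMALINC starts downstream of SCD on the same strand. CHUK, CWF19L1 and BLOC1S2 before SCD were not called, with log2 fold changes of 0.00, -0.25 and -0.28. SEC31B and NDUFB8, which follow OLMALINC, had log2 fold changes of 0.97 and -0.40 and passed only with the block (edgeR, adjusted p = 0.00474 and 0.0388). Around SCD5 none of 6 neighbours was called, and THAP9-AS1 passed only with the block (edgeR, adjusted p = 0.233, and 0.0480 with the block). In all, 2 of 18 neighbours (11.1%) were called, beside 4.25% of all tested genes, and 6 of 18 (33.3%) with the block, beside 24.1%.

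**Figure D5:**
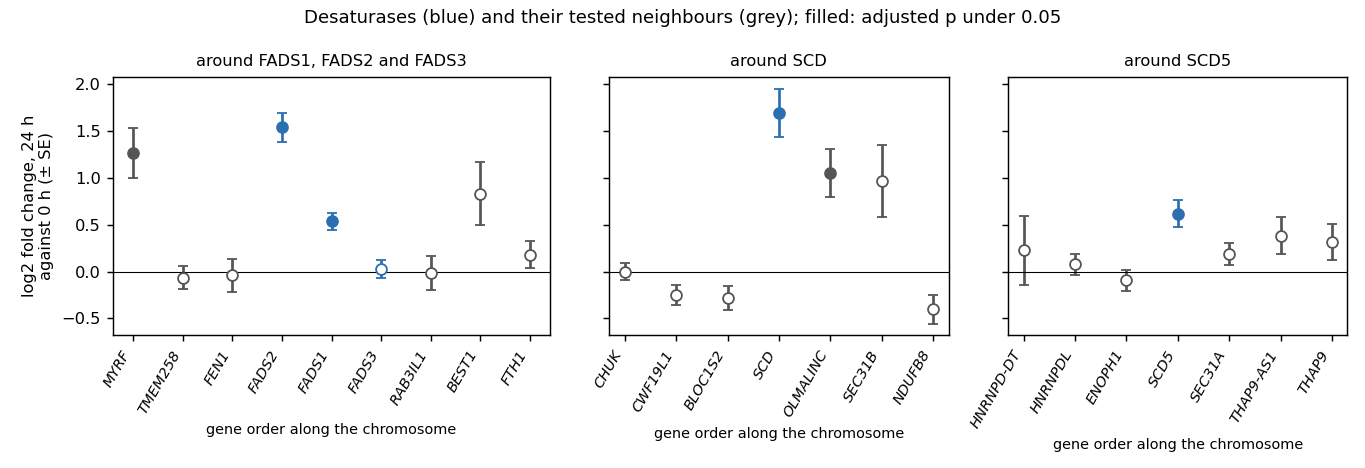
Log2 fold change at 24 h against 0 h of the desaturases and of the 3 nearest tested genes on each side, in genomic order within each region, with bars of 1 standard error and filled points where the adjusted p was under 0.05. MYRF and OLMALINC are the 2 called neighbours.

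The counts of FADS1 and FADS2 carry a limit of their own, because 4.79% of the FADS1 exon bases overlap FADS2 exons on the opposite strand and 4.44% of the FADS2 exon bases overlap FADS1. The strand setting of the counting is not given in the sources used here, so reads from the shared bases cannot be assigned to either gene. On the same strand, 0.444% of the FADS2 exon bases overlap FEN1 and 0.782% of the FADS1 exon bases overlap MIR1908. The exons of SCD, SCD5 and FADS3 had 0% overlap with genes of the opposite strand. The processed pseudogene SCDP1 had 0 to 2 counts per library against 2962 to 18488 for SCD, so few SCD reads can have been counted there.

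The genes whose log2 CPM followed each desaturase most closely over the 9 libraries were ranked by Pearson's r among 10906 genes. These values are descriptions, since all genes share the 9 libraries and each r includes the difference between groups. For SCD the first were TRAK1 (r = 0.997), SREBF2 (0.996), HMGCS1 (0.996), the gene of a cholesterol synthesis enzyme, and TOP2B (0.995). For FADS2 they were ARSD (0.998), SQLE (0.995), DHCR7 (0.993) and PDCD4 (0.988), of which SQLE and DHCR7 code for cholesterol synthesis enzymes. DHCR7 was also first for FADS1 (r = 0.989), before SKP2 (0.982), TSPAN9 (0.980) and PLCG1 (0.980). For SCD5 they were ZFP36 (0.979), GLRB (0.975), NPHP4 (0.973) and LSS (0.973), the gene of lanosterol synthase. A function is given here only for cholesterol synthesis genes, and the genes listed were not grouped by function. Of those listed, ARSD, TOP2B and ZFP36 were not called at 24 h against 0 h (edgeR, adjusted p = 0.0519, 0.0699 and 0.0849).

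Once each group's mean was taken out, r changed unevenly. It stayed at 0.981 for SREBF2 with SCD and at 0.971 for ARSD with FADS2, and it was 0.272 for PLCG1 with FADS1 (9 libraries). Among the desaturases, SCD and FADS2 had r = 0.984, and 0.917 after the group means were removed. FADS1 and FADS2 had 0.973, and 0.446 after removal, and SCD and SCD5 had 0.895, and 0.221 after removal. FADS3 had r of 0.322 to 0.560 with the other 4, and its closest gene was ABHD3 (r = 0.889). The value of SCD and FADS2 after removal was the highest of the 10 pairs. Both genes were lowest in replicate 1, the replicate that stood apart at 0 h and 8 h. At 24 h replicate 1 also had the lowest score on the first principal component (9.56, against 20.02 and 25.03 for replicates 2 and 3).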

How the data were processed

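RNA of 9 LN229 libraries was sequenced from stranded mRNA libraries, per the labels' protocols. The authors deposited 1 table of raw counts per Ensembl gene. The submitters' processing notes name bcl2fastq 2.20.0.422, STAR 2.7.4a and GRCh38. The counting program, its strand setting and its annotation are not given in the sources used here. Symbols came from the gene name table for 23619 of 23727 genes, and 98.0% of the identifiers were in GENCODE 29, which gave positions and exon lengths.

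Genes with low counts were removed by filterByExpr, leaving 15273. Counts were scaled by TMM, and edgeR 4.0.16 (R 4.3.3) fitted a quasi-likelihood model with 1 mean per group to all 9 libraries. P-values were adjusted by Benjamini-Hochberg over all tested genes, and a gene was called when the adjusted p was under 0.05. Log2 CPM used a prior count of 2 for the principal component, the deviations from group means and the likeness. Differences between same-numbered libraries used log2 CPM with no prior count, and ratios of counts added 0.5 to each. Likeness was computed over genes with a mean of at least 5 CPM. The fit was checked on simulated data. Replicates of a group differed by more than sampling noise (chi-square over degrees of freedom 8.51 to 58.7), so no pair was treated as 1 library deposited more than once.

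The members and the gene lists were chosen with earlier results of these data known. Every desaturase was named, and from each list the called genes, or where none was called the gene with the smallest p; further list genes were chosen after their values were seen. Replicate numbers are shared by the titles of the groups. Deviations of same-numbered libraries from their group means correlated at 0.367, 0.164 and 0.251 for 24 h and 0 h, at 0.476, 0.432 and 0.414 for 8 h and 0 h, and at 0.423, 0.0367 and 0.404 for 24 h and 8 h. All exceeded 0.1 except replicate 2 of the last. Alternatives were the replicate block, DESeq2 1.42.0, RLE scaling, no filter, fits to 6 libraries, each library left out, and, chosen after seeing the data, replicate 1 left out at 0 h and 8 h together and lengths of principal transcripts.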

Additional observations from a re-analysis of the deposited data

Results flagged for a closer look

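The changes at 8 h and at 24 h are measured against the same untreated libraries, and the test of 24 h against 8 h asks whether they differ. It passed (edgeR, adjusted p under the threshold) for 3 desaturases, with log2 differences of 1.72 for SCD, 1.53 for FADS2 and 0.53 for FADS1. It also passed for 13 of the 82 tested genes of the lipid lists, beside 4.56% of all tested genes. Among the SREBP regulators the difference was 1.77 for INSIG1, 1.03 for SREBF2 and 0.98 for SREBF1. Among the enzymes of fatty acid supply and elongation it was 0.95 for ACSS2, 0.69 for FASN, 0.62 for ACACA and 0.62 for ELOVL2. The sterol oxidase MSMO1 had a difference of 1.04. In acyl-CoA activation SLC27A1 had 0.78 and SLC27A4 -0.65. Among the acyltransferases GPAT3 had -0.84, and DGAT2 and MBOAT1, which were not called at 24 h against 0 h, had 0.55 and 0.47. MBOAT1 had a mean of 14.9 ± 0.204 CPM at 0 h, 12.3 ± 0.542 at 8 h and 17.0 ± 1.30 at 24 h (SD, n = 3), so its difference includes a lower level at 8 h that did not pass the test against 0 h (edgeR, adjusted p = 0.999855).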

How the results depend on the processing

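SCD, SCD5, FADS1 and FADS2 kept a positive log2 fold change at 24 h against 0 h under all 25 alternatives run, within 1.43 to 1.87, 0.53 to 0.71, 0.47 to 0.58 and 1.39 to 1.65. With the replicate block, 4 desaturases were called at 24 h against 0 h and 4 at 24 h against 8 h. With only the 6 libraries compared, 2 were called at 24 h against 0 h. With libraries left out (each of the 9 in turn, and replicate 1 at 0 h and 8 h together, each with and without the block), 0 to 4 were called in either comparison. List genes called at 24 h against 0 h numbered 11, with 28 under the replicate block, 22 with DESeq2 and 0 to 34 with libraries left out (0 to 31 with 1 left out). At 24 h against 8 h they numbered 13, with 27 under the replicate block, 22 in the fit to 6 libraries and 0 to 45 with libraries left out. All genes called at 24 h against 8 h numbered 696, with 3130 under the replicate block and 1787 in the fit to 6 libraries. With libraries left out they numbered 0 to 5432, the largest in the fit that called 45 list genes. With libraries left out, the sign turned for FADS3 at 24 h against 0 h (-0.039 to 0.0725), and at 8 h against 0 h for SCD (-0.28 to 0.18), FADS1 (-0.0521 to 0.0644, or from -0.0475 with 1 left out), FADS2 (-0.12 to 0.13) and the log2 ratios of FADS2 to FADS1 (-0.0924 to 0.14) and SCD to SCD5 (-0.37 to 0.18). The cause was not tested. All genes called at 24 h against 0 h numbered 649, with 3687 under the replicate block, 1594 with DESeq2 and 124 in the fit to 6 libraries. With libraries left out, all genes called at 24 h against 0 h numbered 0 to 3994. No call of a desaturase at 24 h against 0 h changed with the block. Counts of 115 to 219 limit the precision of SCD5.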
